A study of Mus musculus with 6 samples.

Results

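Small leucine-rich proteoglycans are secreted proteins of connective tissue, and 8 of them made by stromal cells of fat were followed here: decorin (Dcn), biglycan (Bgn), asporin (Aspn), lumican (Lum), osteomodulin (Omd), Prelp, osteoglycin (Ogn) and podocan (Podn). Probes were chosen by the RefSeq accession printed for them in the scanner tables, matched to a gene symbol. Of the 8 genes, 7 had a probe, 1 probe each, among 25777 genes and unnamed transcripts tested. Prelp had no matched probe and has no value here. The matching used accessions and no measured values, while the 8 genes were picked with earlier results of these data known. The mean of Lum was 1.75-fold higher in propolis and that of Omd 1.65-fold lower, with no overlap between the groups, but neither passed the test after adjustment over all genes. For the other 5 genes the groups overlapped, and each difference was below the SD of the propolis samples.

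The mice were male, of the strain C57BL/6JHamSlc-ob/ob, so both groups carried the leptin mutation that makes this strain obese. Propolis mice received Brazilian propolis, a resin collected by bees, at 100 mg/kg into the peritoneum, given 2 times a week for 12 weeks. Vehicle mice received the carrier, DMSO and ethanol at low concentration, over the same 12 weeks. RNA came from mesenteric fat, from its stromal vascular fraction, which is the cell pellet left after collagenase digestion, red cell lysis and removal of debris, and each of the 3 samples of a group was read on its own 1-colour array. The labels name biological replicates without giving the number of mice in a sample, so a p-value reflects only how far these samples spread.

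Proteins of this family fold into a curved stack of leucine-rich repeats that binds collagen. They sit on the surface of collagen fibrils, limit how thick fibrils grow, and can hold growth factors such as TGF-beta in the matrix. Decorin and biglycan carry chondroitin or dermatan sulfate chains, lumican and osteomodulin can carry keratan sulfate, and asporin carries no such chain but a stretch of aspartate residues. In fat, fibroblasts and adipocyte progenitors are the usual source of decorin and lumican.

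Levels are given as log2 of the background-corrected fluorescence minus the 75th percentile of the array, so that a level of 0 is the 75th percentile and a difference of 1 is 2-fold. Brightness depends on the probe, and levels of different genes are not compared. Every mean is given ± SD with n = 3. All 7 probes stood well above background on 6 of 6 arrays and none was saturated. The arrays had 61.1% to 66.7% of their 59305 non-control spots well above background, and their number, 3 against 3, limits the precision. Slide 1 held vehicle 1 and 2 and propolis 1 and 2, and slide 2 held vehicle 3 and propolis 3. Among the vehicle samples, vehicle 2 carried pancreatic acinar genes at a mean level of 4.90, against at most -2.66 on the other arrays, and vehicle 3 carried intestinal epithelial genes at 4.59, against at most -0.74. Member differences without these samples are given beside the results they touch.

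Omd, Aspn and Ogn lie side by side on chromosome 13 with no other protein-coding gene between them in the RefSeq annotation of GRCm38.p6. Their starts are shown because Omd and Aspn had lower means in propolis while Ogn, their neighbour, did not. None of these differences passed the adjusted test, and the groups overlapped for Aspn and Ogn. Each sequence is the 250 bases before the annotated start, on the + strand of GRCm38.p6, credited to RefSeq, and capitals mark the TATA box TATAAA and the CCAAT box on either strand. The windows are chr13:49544193-49544442 for Aspn, chr13:49582212-49582461 for Omd and chr13:49607765-49608014 for Ogn.
Aspn: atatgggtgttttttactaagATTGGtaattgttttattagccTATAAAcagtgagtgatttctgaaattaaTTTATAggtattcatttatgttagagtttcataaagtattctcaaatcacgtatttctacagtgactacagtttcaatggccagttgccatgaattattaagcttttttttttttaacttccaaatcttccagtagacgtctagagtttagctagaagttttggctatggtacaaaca
Omd: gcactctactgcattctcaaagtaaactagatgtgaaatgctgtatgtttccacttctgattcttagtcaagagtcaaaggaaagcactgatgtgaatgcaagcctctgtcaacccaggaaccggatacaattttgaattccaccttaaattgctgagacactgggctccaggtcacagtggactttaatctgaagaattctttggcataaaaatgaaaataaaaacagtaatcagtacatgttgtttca
Ogn: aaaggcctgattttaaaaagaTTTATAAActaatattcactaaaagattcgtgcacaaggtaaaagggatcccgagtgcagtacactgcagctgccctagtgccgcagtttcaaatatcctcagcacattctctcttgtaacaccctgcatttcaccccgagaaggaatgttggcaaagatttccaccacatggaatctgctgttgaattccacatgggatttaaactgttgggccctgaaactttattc
Counted back from the start, the Aspn window held the TATA box at -207 to -202 on the same strand and at -178 to -173 on the opposite strand, and the CCAAT box at -229 to -225 on the opposite strand. The Ogn window held the TATA box on both strands, at -227 to -222 and -229 to -224, which overlap. The Omd window held neither of them, nor the GC box GGGCGG. Over 32851 windows of the same length, 12.4% held the TATA box, 33.8% the CCAAT box and 32.7% the GC box on either strand. Windows were matched for 6 of the 8 genes, with none used for Dcn or Lum. These matches describe letters only.

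Dcn, the proteoglycan that decorates collagen fibrils and binds TGF-beta, had a level of 8.89, 8.996 and 8.94 in vehicle 1, 2 and 3. In propolis 1, 2 and 3 it had 8.53, 8.76 and 9.21. The vehicle samples lay close together, and the propolis samples lay on both sides of them. The means were 8.94 ± 0.054 in vehicle and 8.83 ± 0.35 in propolis, a difference of -0.11 (SE 0.22, 95% interval -0.64 to 0.42), with a limma adjusted p of 0.892. The interval excludes a 2-fold change in either direction. The difference was -0.30 on slide 1 and 0.27 on slide 2. Under scaling to the array median it was 0.0482, under quantile normalisation 0.0291, and without propolis 1 it was 0.0436. The raw signal of the Dcn spot was 26.6% to 35.7% of the scanner's saturation value.

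Bgn, the close relative of decorin that also acts as a ligand of Toll-like receptors when released, had a level of 2.61, 2.62 and 3.04 in the vehicle samples and 2.95, 2.89 and 4.18 in the propolis samples. Propolis 3 stood above the other 5 arrays, and the groups overlapped. The means were 2.76 ± 0.24 and 3.34 ± 0.73, a difference of 0.58 (SE 0.38, 95% interval -0.34 to 1.51), which is 1.498-fold with a limma adjusted p of 0.652. Without propolis 3 the difference was 0.16. Slide 1 gave a difference of 0.30 and slide 2 of 1.14. A slide block brought the limma adjusted p to 0.272.

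Aspn, which binds TGF-beta and collagen and lacks a glycosaminoglycan chain, had a level of 2.64, 2.65 and 2.26 in vehicle and of 1.497, 2.76 and 1.91 in propolis. Propolis 1 and 3 were the lowest of the 6 arrays and propolis 2 the highest. The means of 2.52 ± 0.22 and 2.05 ± 0.64 differed by -0.46 (SE 0.34, 95% interval -1.29 to 0.37), with a limma adjusted p of 0.697. The difference was -0.18 without propolis 1 and -0.81 without propolis 2.

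Lum, a keratan sulfate proteoglycan known for keeping collagen fibrils thin and evenly spaced in the cornea, had a level of 7.15, 7.28 and 6.84 in vehicle. In propolis its levels were 7.69, 8.06 and 7.94. Every propolis sample was above every vehicle sample. The mean went from 7.09 ± 0.22 to 7.90 ± 0.19, a difference of 0.81 (SE 0.20, 95% interval 0.33 to 1.29), or 1.75-fold with an interval of 1.25 to 2.45. The limma p was 0.00595 and the adjusted p 0.170, above the threshold of 0.05. Slide 1 gave 0.66 and slide 2 gave 1.10, and a slide block brought the adjusted p to 0.129. Without vehicle 2 and vehicle 3 together the difference was 0.75. Over the alternatives it ran from 0.66 to 0.97, and among 21 alternatives it passed in 1, with estimated array weights, where the limma adjusted p was 0.0144 and 3231 genes were called.

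Omd, a keratan sulfate proteoglycan first known from bone matrix, had a level of -1.40, -1.17 and -1.03 in vehicle and of -2.32, -1.84 and -1.62 in propolis. Every propolis sample was below every vehicle sample. The mean went from -1.20 ± 0.19 to -1.93 ± 0.35, a difference of -0.72 (SE 0.24, 95% interval -1.29 to -0.16), or 1.65-fold lower. The limma p was 0.0202 and the adjusted p 0.297. The difference was -0.79 on slide 1 and -0.59 on slide 2, with an adjusted p of 0.158 with slide as a block. The unadjusted limma p was 0.0576 without vehicle 2 and also without vehicle 3, where the difference was -0.71 and -0.64. Without both together it was -0.52.

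Ogn, also called mimecan, had a level of 5.41, 5.71 and 5.78 in vehicle and of 5.14, 6.01 and 6.04 in propolis. Propolis 1 was the lowest array and propolis 2 and 3 the highest. The means of 5.63 ± 0.20 and 5.73 ± 0.51 differed by 0.10 (SE 0.29, 95% interval -0.60 to 0.80), with a limma adjusted p of 0.934. Leaving out propolis 1 gave a difference of 0.39. It was -0.015 without vehicle 1, -0.043 when propolis 2 was left out and -0.058 when propolis 3 was.

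Podn, a more distant member that binds collagen and restrains smooth muscle growth, had a level of 2.88, 2.87 and 3.40 in vehicle and of 2.27, 3.02 and 3.46 in propolis. The sample of slide 2 was the highest of its group in both cases. The means of 3.05 ± 0.30 and 2.92 ± 0.60 differed by -0.13 (SE 0.34, 95% interval -0.95 to 0.69), with a limma adjusted p of 0.922. The difference was 0.19 without propolis 1 and 0.042 without vehicle 3.

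**Figure D1:**
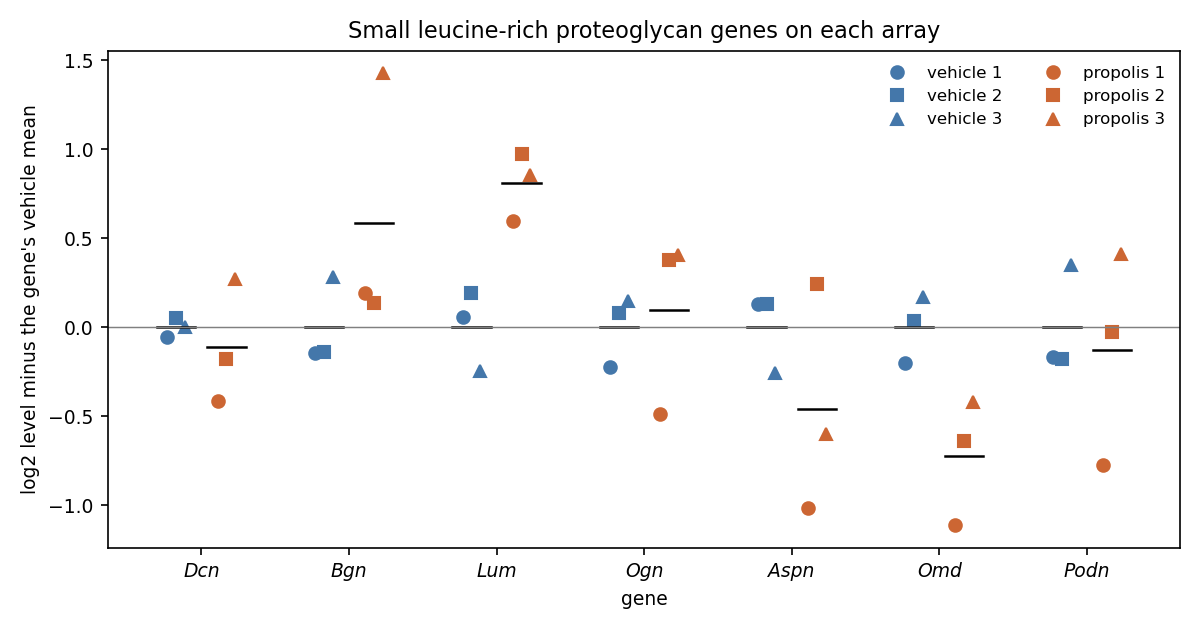
Log2 level of each of the 7 genes with a probe, minus the gene's vehicle mean, in 3 vehicle and 3 propolis samples. Each array is 1 point, and a line gives the group mean. The propolis points of Lum, at levels of 7.69 to 8.06 before that subtraction, lie above all vehicle points. Those of Omd, at levels of -2.32 to -1.62, lie below all vehicle points, and the groups overlap for the other 5 genes.

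No member passed an adjusted p of 0.05 in limma in either direction, 0 of 7, where 0.834% of all genes tested did, 0.722% higher and 0.113% lower in propolis. At an unadjusted p under 0.05 there was 1 member higher, Lum, and 1 lower, Omd, against 11.7% of all genes, 7.24% higher and 4.48% lower. The same genes were the 2 of 7 whose groups did not overlap, against 17.4% of all genes, 10.8% higher and 6.62% lower. Of the 7 members, 3 had a higher and 4 a lower mean in propolis, and under median scaling Dcn and Podn, and under quantile normalisation Dcn, turned to higher. The median difference was -0.11, beside -0.00408 over all genes, with -0.23 on slide 1 and 0.26 on slide 2. The median was 0.0482 under median scaling, where that of all genes was 0.15, and 0.00621 under quantile normalisation. Leaving out propolis 1 gave a median of 0.19, leaving out propolis 3 gave -0.30, and leaving out vehicle 2 and 3 together gave 0.038. Without those 2 samples the differences of Dcn, Bgn, Ogn and Aspn were -0.054, 0.73, 0.32 and -0.59, and that of Podn was 0.038.

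The propolis samples were more spread than the vehicle samples for 6 of the 7 members, Lum being the exception, where this held for 61.3% of all genes. Propolis 1 was the lowest of the 6 arrays for 5 members, Dcn, Ogn, Aspn, Omd and Podn, against 24.5% of all genes. Propolis 3 was the highest for 4 members, Dcn, Bgn, Ogn and Podn, against 18.5% of all genes. Averaged over the 7 members after centring each on its own mean, the profile was -0.092, 0.020 and 0.058 in vehicle 1, 2 and 3 and -0.44, 0.12 and 0.33 in propolis 1, 2 and 3. The genes nearest to this profile over the 6 arrays were Tas1r1, Ptpdc1, Kctd9, Cryba4 and Gtf3c4, at a root mean square distance of 0.0429, 0.0516, 0.0535, 0.0628 and 0.0712 on the log2 scale. None of these 5 passed the limma test. The summed linear level of the members, in units of the 75th percentile of the array, was 678 to 738 in vehicle and 626 to 938 in propolis. Dcn and Lum, whose probes were the brightest, make up most of this sum, so it says little about the other members.

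A ratio of members within an array is unchanged by subtracting a constant from each array, as in scaling to a percentile. Quantile normalisation or another background correction can change it. All 21 pairs of members were compared after their values had been seen. Relative to the mean vehicle ratio, the log2 ratio of Lum over Omd was 1.71, 1.61 and 1.28 in propolis 1, 2 and 3 and -0.41 to 0.26 in vehicle, a difference of 1.53. Lum over Dcn moved apart as well: the ratio of Dcn over Lum was -1.16 to -0.59 in propolis and -0.14 to 0.25 in vehicle, a difference of -0.92. Ogn over Omd, chromosome 13 neighbours, was 0.62 to 1.01 in propolis and -0.023 to 0.045 in vehicle, a difference of 0.82. In an exact 2-sided permutation test of 3 against 3 samples each of these had the smallest p it allows, 0.1, and 0.191 after Benjamini-Hochberg adjustment over the 21 pairs. For Lum over Omd this outcome was fixed beforehand, since Lum was higher and Omd lower on every propolis array. Of the 21 pairs, 11 did not overlap between groups, and no share over other gene pairs was computed. All of these except Dcn over Bgn and Bgn over Podn included Lum or Omd, the members whose own groups did not overlap. The count therefore largely restates those genes and is not a separate result. Aspn over Omd differed by 0.26 and overlapped between groups.

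Relatives of the 8 genes were read from a list of 10 other leucine-rich proteoglycans, all of which were tested. Of the 10, 1 rose, none fell, 8 had a higher and 2 a lower mean in propolis, and the median difference was 0.37; under median scaling and quantile normalisation these directions were also 8 and 2. At an unadjusted p under 0.05 there were 4 higher and 1 lower. Kera, the cornea proteoglycan keratocan, rose: its level was -6.56, -7.14 and -7.48 in vehicle, where no array had it well above background, and -4.21, -3.09 and -3.43 in propolis. With the background correction of the main fit, the fold is at least 3.44-fold higher, with a limma adjusted p of 0.0183 and of 0.0371 with slide as a block. Kera entered the test through its propolis arrays alone, and it dropped out where all arrays had to be well above background. For the bound on the fold a vehicle array counts at its own Kera signal or at its dimmest probe that is well above background, whichever is brighter. The bound depends on the background correction, as do those given below for Col11a1 and Tnmd.

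The Kera call was lost without vehicle 1, 2 or 3, with a limma adjusted p of 0.0515, 0.105 and 0.0574, and without propolis 2 or 3, with 0.0915 and 0.0617. It held without propolis 1, at 0.0421, and without vehicle 2 and 3 together it was 0.440. With normexp on median signals and an offset of 50, a setting that shrinks the differences of dim probes, its fitted difference was 0.65, with an adjusted p of 0.381. That difference lies below the bound given above.

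Fmod, the tendon proteoglycan fibromodulin, had a level of 0.18, -0.15 and 0.42 in vehicle and of 1.595, 2.55 and 3.08 in propolis. Every propolis sample was higher, the difference was 2.26 (SE 0.40), and the limma adjusted p of 0.0751 missed the threshold. Epyc, the growth plate proteoglycan epiphycan, had -0.89, -0.99 and -0.96 in vehicle and 1.33, 1.56 and 0.20 in propolis. Its difference was 1.98 (SE 0.37) with a limma adjusted p of 0.0848. Fmod passed under median scaling (0.0294) and with array weights (0.00396), and Epyc with array weights (0.00311) and without propolis 3 (0.0265). Chadl, a chondroadherin-like gene, differed by 0.64 with an adjusted p of 0.255. Ecm2, a matrix protein with leucine-rich repeats, had a mean of 1.00 ± 0.25 in vehicle and 0.15 ± 0.49 in propolis, a difference of -0.85 with an adjusted p of 0.330.

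**Figure D2:**
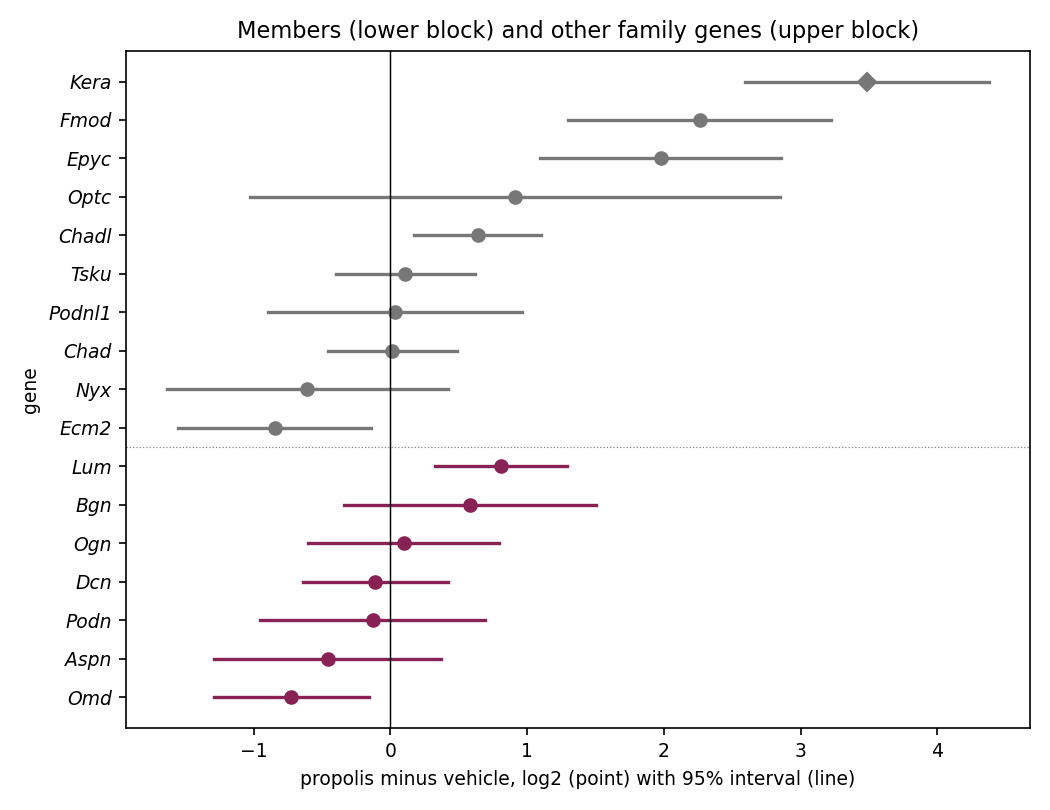
Difference in level, propolis minus vehicle, on the log2 scale with its 95% interval, for the 7 members and 10 relatives tested, 3 samples in each group. The fitted difference of Kera is not a fold, since its vehicle signal was not well above background. Lum at 0.81 and Omd at -0.72 are the members whose intervals exclude 0, and Fmod at 2.26 and Epyc at 1.98 lie further out than any member.

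Of the members 6, and of the relatives 5, lie in 3 runs of neighbouring genes, in which no other protein-coding gene stands between them. In the run on chromosome 10 the differences were -0.11 for Dcn, 0.81 for Lum and 1.98 for Epyc, and Kera, between Lum and Epyc, had a fitted difference of 3.49 that is not a fold. In the run on chromosome 13 they were -0.85 for Ecm2, -0.46 for Aspn, -0.72 for Omd and 0.10 for Ogn. On chromosome 1 Optc differed by 0.91 with a limma adjusted p of 0.747 and Fmod by 2.26, and Prelp between them has no value. Of the 10 genes of these runs with a value, Dcn differed in sign between the slides and the other 9 did not. Runs of neighbours were compared after the differences were known, and no test was made over a run.

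**Figure D3:**
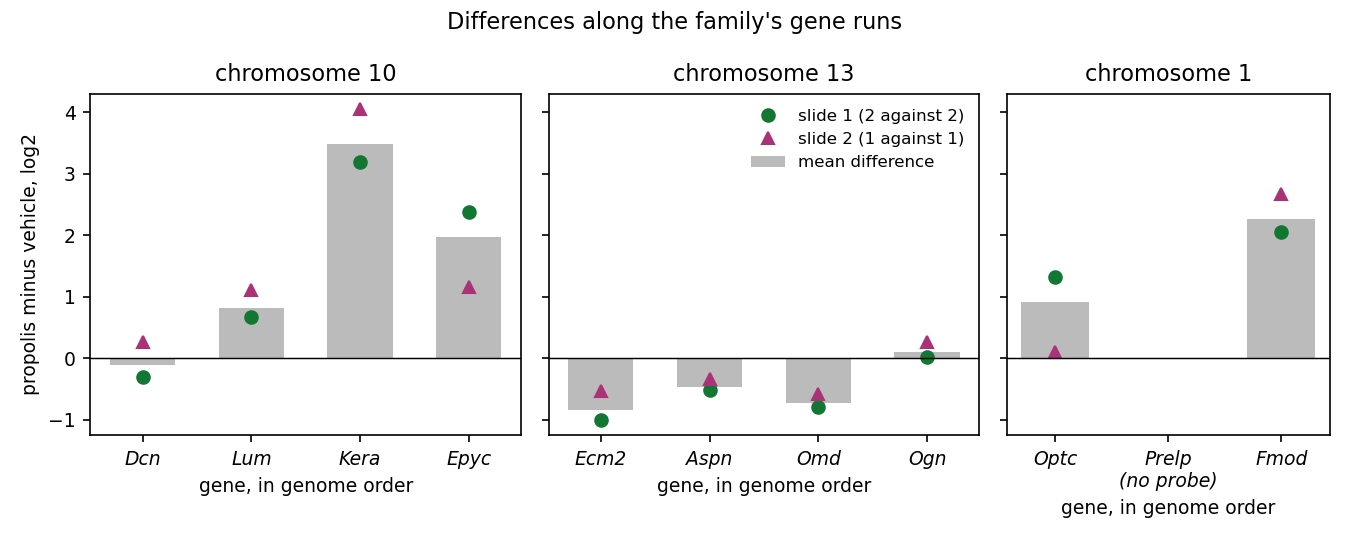
Mean difference in level, propolis minus vehicle, on the log2 scale (bars), for genes in their order along 3 chromosome runs, 3 samples in each group. Points give the difference on slide 1 and on slide 2, and spacing is not to scale. In the chromosome 10 run Dcn lies at -0.11, Lum at 0.81 and Epyc at 1.98. The bar of Kera, at 3.49, is not a fold, because its vehicle signal was not well above background. In the chromosome 13 run 3 of the 4 genes lie below 0.

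The enzymes that build chondroitin and dermatan sulfate chains, carried by decorin and biglycan, had 22 genes tested. None passed the adjusted test, 15 had a higher and 7 a lower mean in propolis, with 7 higher and 3 lower at an unadjusted p under 0.05 and a median of 0.25. Chst12, a chondroitin sulfotransferase, differed by 0.64 (limma adjusted p 0.217) and Chsy1, a chondroitin synthase, by 0.70 (0.283). Chst3, which sulfates chondroitin at another position, had a difference of -2.63 with an adjusted p of 0.193. Its vehicle levels were widely spread, at 0.29, 1.87 and -0.84 in vehicle 1, 2 and 3. The Chst3 difference was -3.59 on slide 1 and -0.71 on slide 2. For keratan sulfate, the chain of lumican and osteomodulin, 5 of 6 genes were tested and none passed, with 4 higher and 1 lower and a median of 0.39. B4galt1, a galactosyltransferase, differed by 0.71 (0.181), B4galt4 by 0.39 (0.630), and Chst1, the keratan sulfate sulfotransferase, by -0.82 (0.187).

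Fibrillar collagens and their partners, the ligands of the family, had 15 of 17 genes tested. None passed, 12 had a higher mean and 3 a lower mean, 8 were higher and 0 lower at an unadjusted p under 0.05, and the median difference was 0.62. Col5a1, a collagen that starts fibrils, was 4.09 ± 0.042 in vehicle and 5.35 ± 0.39 in propolis, a difference of 1.26 with a limma adjusted p of 0.0853. Col5a2, its partner chain, differed by 0.96 (0.155). Col11a1, a cartilage collagen that no vehicle array showed well above background, was at least 1.65-fold higher, with an adjusted p of 0.0705. It entered the test through its propolis arrays alone.

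Growth factors and receptors that bind members of the family had 14 of 15 genes tested, and 1 of them rose. Tgfb3, a TGF-beta ligand, had a level of 3.06, 3.51 and 3.53 in vehicle and of 4.85, 5.70 and 5.70 in propolis. Every propolis sample was higher, the difference was 2.05 (SE 0.30), or 4.14-fold, and the limma adjusted p was 0.0463. The call held when propolis 1 was left out, at 0.0429, and was lost when any other array was left out, with adjusted p-values of 0.172, 0.174 and 0.0927 without vehicle 1, 2 and 3 and 0.153 and 0.0890 without propolis 2 and 3. Without vehicle 2 and 3 together it was 0.487. Tgfb2 differed by 1.18 (0.256) and the receptor Tgfbr2 by 0.51 (0.262). Of the 14, 10 had a higher and 4 a lower mean, 4 were higher and 0 lower at an unadjusted p under 0.05, and the median was 0.30.

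Proteases that mature or cleave the family had 10 of 11 genes tested, and none passed. Mmp2, a gelatinase, differed by 1.34 (limma adjusted p 0.100), Bmp1, the procollagen protease that also trims probiglycan, by 0.94 (0.140), and Adamts1 by 0.64 (0.440). The means were higher for 8 and lower for 2, with 2 higher and 0 lower at an unadjusted p under 0.05, and the median was 0.74. Over all genes tested the median difference was -0.00408.

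**Figure D4:**
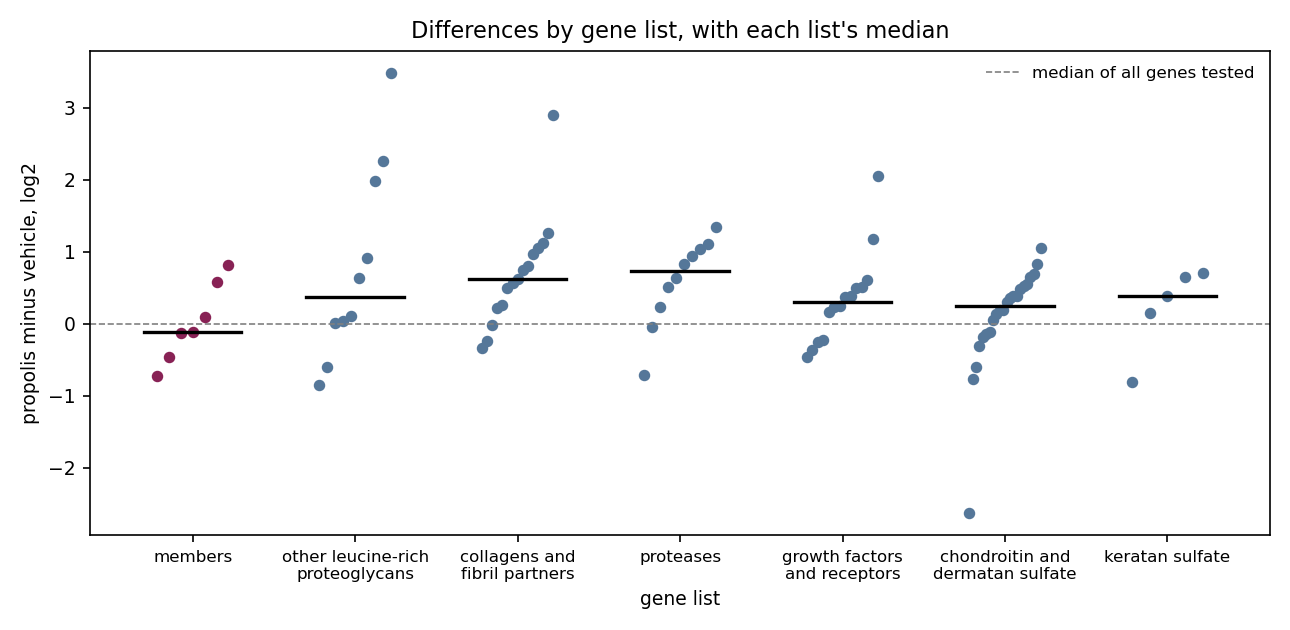
Difference in level of each gene, propolis minus vehicle, on the log2 scale, by list: the members, other leucine-rich proteoglycans, chain synthesis, collagens, growth factors and proteases, 1 point per gene, with the median of each list. The median lies at -0.11 for the members and between 0.25 and 0.74 for the other lists.

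Markers of the cells that could hold this RNA were read on the same arrays. The 15 markers of stromal progenitors and fibroblasts were well above background on all arrays, so the labelled stroma was present. Of the 15, 6 had a higher and 9 a lower mean in propolis, with 3 higher and 0 lower at an unadjusted p under 0.05. Pdgfra and Cd34, both among these markers, had means of 3.95 ± 0.13 and 6.68 ± 0.19 in vehicle and 3.84 ± 0.28 and 6.47 ± 0.45 in propolis. Pdgfrb and Col15a1 had differences of 0.47 and 0.93, with limma adjusted p-values of 0.403 and 0.188. Their list had 1 gene that rose, Clec11a, a secreted growth factor, at 1.22 (SE 0.17), 2.33-fold, with a limma adjusted p of 0.0409. That call was lost without any 1 array, with adjusted p-values of 0.0769 to 0.201, and without vehicle 2 and 3 together it was 0.719. The mean level over the 15 genes was 4.08 to 4.26 in vehicle and 4.07 to 4.41 in propolis, and the summed linear level 539 to 649 and 524 to 627. The median difference was -0.11, and 0.0516 under median scaling.

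Mesothelial and tendon markers included genes that rose. Of 10 mesothelial markers 9 had a higher mean in propolis, 2 rose (Bnc1 and Wt1), and the median was 1.42. Their summed linear level was 17.5 to 97.1 in vehicle and 62.8 to 101.9 in propolis. Of 5 tendon, cartilage and bone markers tested, of 9 listed, 2 rose: Scx by 29.9-fold and Tnmd by at least 11.4-fold. No vehicle array showed Tnmd well above background, so it entered the test through its propolis arrays alone, with a limma adjusted p of 0.0317. The lowest limma adjusted p was 0.0299 among the mesothelial and 0.0178 among the tendon, cartilage and bone markers. How the calls of Bnc1, Wt1, Scx and Tnmd fare with an array left out was not examined. Calls over all genes then numbered 11 to 94 in place of 215. Sox9, Comp and Acan had differences of -0.48, -0.16 and 0.26 and did not pass, so that 3 of the 5 had a higher and 2 a lower mean, with a median of 0.26. The mean level of the 5 was -3.48 to -3.07 in vehicle and -1.51 to -1.13 in propolis, their summed linear level was 1.56 to 2.41 and 2.97 to 5.31, and Mkx, Runx2 and Sp7 were not well above background on enough arrays to be tested. None of 10 pericyte and smooth muscle, 9 endothelial, 8 macrophage, 6 T cell, 5 B cell, 5 acinar, 9 intestinal, 11 adipocyte and 5 Schwann cell genes tested passed, with medians of -0.21, -0.80, -0.18, -0.62, -2.83, -3.00, -1.76, -0.89 and -0.09. B cell genes had a mean level of 0.48 in vehicle 1 and 2.59 in vehicle 2, against -2.59 to -1.50 on the other 4 arrays, and their median difference was -4.28 on slide 1 and 0.092 on slide 2. For T cell genes it was -1.24 and 0.53. All 11 adipocyte genes had a lower mean in propolis, also under median scaling and quantile normalisation, and their summed linear level was 378 to 428 in vehicle and 193 to 260.5 in propolis. Fabp4 and Lpl, at mean levels of 7.99 and 6.90 in vehicle, make up most of that sum. The part of these cells in the members' differences was not tested, and in bulk RNA fewer cells of a type and less RNA per cell cannot be told apart.

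**Figure D5:**
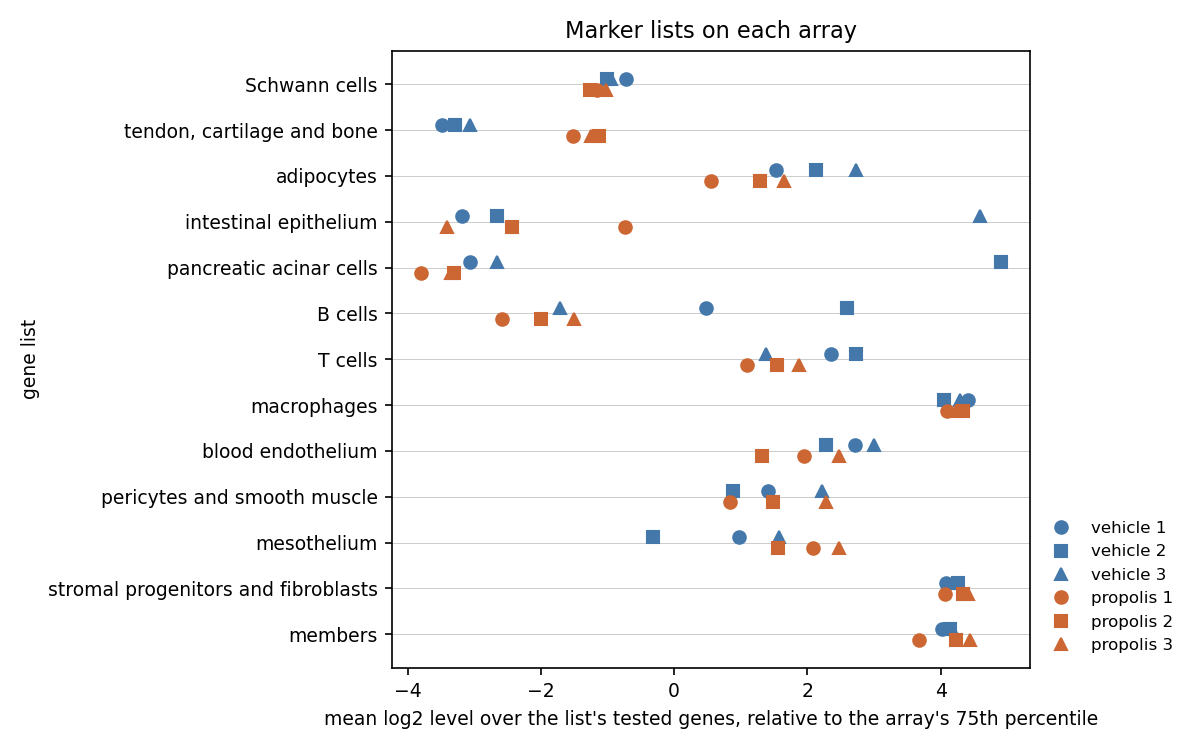
Mean level of each marker list on each array, as log2 intensity minus the 75th percentile of the array, for 3 vehicle and 3 propolis samples, 1 point per array. The stromal progenitor list stays between 4.07 and 4.41 on all 6 arrays, and single vehicle samples stand out at 4.90 for acinar and 4.59 for intestinal genes.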

How the data were processed

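Per the file headers and the submitters' processing notes, the authors read 1-colour arrays with Agilent Feature Extraction 10.7.3.1. Each spot's intensity in the deposited scanner output is background-corrected and linear. A deposited table of the whole series gives log2 values with the 75th percentile of each array near 0, array medians of -3.97 to -3.62 and no stated method, and served as an alternative. The array design was annotated on mm9. Symbols came from RefSeq accessions through a GRCm38.p6 table, which named 27235 of 55681 probes.

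Processed signals were turned to log2, non-uniform spots were left out, spots of a probe were averaged, and the 75th percentile of each array was subtracted. Probes well above background on at least 3 of 6 arrays entered (34786, of which 4 lacked a value), and the brightest stood for its gene. Propolis was set against vehicle in limma 3.58.1 (R 4.3.3) without a block, adjusted by Benjamini-Hochberg over 25777 genes, with a threshold of 0.05 and 2.36 prior degrees of freedom. The smallest exact permutation p of this design is 0.1. The fit was also run on simulated data with independent noise for each gene. That noise held no slide effect and no carried-over tissue, so the simulation does not cover them.

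The members and lists were chosen with earlier results of these data known. Named genes are the members, called genes and up to 3 of lowest p per list, at most 2 per marker list, and the 5 genes nearest to the members' mean profile. Pdgfra, Pdgfrb, Cd34, Chadl, Ecm2, Optc, Fabp4, Sox9, Comp and Acan and the untested tendon and bone markers were named outside this rule, after their values were seen. Of 199 listed genes, 194 had a probe. Replicate numbers were not used as pairs in the main fit. Deviations of same-numbered samples correlated at 0.036, 0.29 and 0.14, and those of differently numbered samples at -0.31 to 0.21. These values do not settle whether the samples were paired, and vehicle 3 and propolis 3 also share slide 2. Protein sequences were not used here.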

Additional observations from a re-analysis of the deposited data

How the results depend on the processing

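Over 21 alternatives no member was called, except that estimated array weights, which ran from 0.292 for propolis 3 to 8.28 for vehicle 1, gave 1 member called higher, Lum. Members higher at an unadjusted p under 0.05 numbered 2 with slide as a block, where Bgn joined Lum, and 0 without vehicle 2 and 3 together, where those lower were also 0. The number lower ranged from 0 to 2 over the arrays left out in turn, with 0 without vehicle 2 or 3 and 2 without propolis 2, where Aspn joined Omd. Lum and Bgn kept a higher and Omd and Aspn a lower mean in every alternative.

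Dcn turned to 0.0482 under median scaling and 0.0291 under quantile normalisation, and Podn to 0.0272 under median scaling, 0.0495 with array weights and 0.0379 without vehicle 2 and 3 together. With 1 array left out Dcn ranged from -0.30 to 0.0436, Ogn from -0.0579 to 0.39 and Podn from -0.40 to 0.19. Median scaling moved the median of all genes to 0.15. With a replicate block no member passed (Lum 0.174, Omd 0.168, limma adjusted p), Kera, Tgfb3 and Clec11a were lost, at 0.0831, 0.0519 and 0.0968, and 73 genes were called in place of 215. Calls over all genes were 0 on slide 1 alone and without vehicle 2 and 3 together, 11 to 94 with 1 array left out, 106 with no filter, 313 with the slide block, 317 with median scaling and 3231 with array weights. Tgfb3 was also lost under quantile normalisation (0.0650), with no filter (0.0792) and by the probe of largest variance (0.0513), and Clec11a under the last 2 of these (0.0751 and 0.0550). Each member had 1 probe, so the rule for choosing probes could not change a member's level. Clec11a was also lost on slide 1 alone (0.0980), Tgfb3 there (0.113) and Kera there (0.0935). Normexp used median signals and an offset of 50.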
